A study of Rattus norvegicus with 4 samples.

Results

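Interferons are secreted proteins that cells release when they sense virus or are stimulated by immune cells. Their receptors signal through Janus kinases and STAT proteins, which enter the nucleus and, with interferon regulatory factors, bind short elements in the promoters of target genes. Type I interferons act mainly through the interferon-stimulated response element (ISRE) and induce antiviral effectors, whereas interferon gamma acts mainly through the gamma-activated site (GAS) and also raises the proteins that cut, transport and display peptides on class I and class II molecules of the major histocompatibility complex, called RT1 in the rat. In the testis this system is of interest because germ cells are shielded from immune attack while the cells around the tubule can answer infection.

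The 47 genes described here cover that pathway from receptor to antigen display. They were listed by name as genes of this pathway, with earlier results of these data known, and a probe belonged to the set when its gene name, or an older symbol of the same gene, was on the list. Of the 47 genes, 46 had a probe, none being named Irf8, and these 46 genes had 63 of the 41012 probes on the array that were not controls. The files listed 8 of them under an older symbol: G1p2 for Isg15, Best5 for Rsad2, Oas1 for Oas1a, Oasl1 for Oasl, Isgf3g for Irf9, C2ta for Ciita, RGD1560496 for Ifih1 and RGD1310093 for Dhx58. There were 13 genes with more than 1 probe, and the brightest probe stood for the gene in every test.

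Peritubular myoid cells are the flat contractile cells around the seminiferous tubule. The samples were total RNA of such cells from male rats aged 40 days, kept for 4 days in a culture medium with defined growth factors and hybridised to 4 one-colour arrays, 2 from cells labelled as given testosterone and 2 from cells labelled control. The labels give testosterone at 1e-07 M in pulses, in a protocol text worded alike for both groups, and the series asks which genes testosterone induces. They name no strain. Whether a group's arrays stem from different rats or different cultures is not said either, and p-values therefore cover array-to-array spread that may be technical only. Each group had arrays numbered 1 and 2, and the labels do not say what the number marks. Both arrays numbered 2 lay at positions 1 and 2 of the slide and both numbered 1 at positions 3 and 4, so number and slide position cannot be told apart.

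Levels are log2 processed signals relative to the 75th percentile of the array. A level of 0 is that of the 75th percentile, and levels of different probes are not set against each other. Between 63.5% and 68.2% of the spots of an array were well above background. The header of control replicate 1, alone of the 4, asked for evaluation of the scan, and its replicated spots varied by 9.52% (median coefficient of variation) against 5.25% to 5.53% elsewhere. In array columns 57 to 85 it differed from testosterone replicate 1 by a median of 0.18 (log2, either direction) against 0.13 in the other columns, where the arrays numbered 2 gave 0.16 and 0.16. Those columns held 22 of the 63 probes, among them the probe that stood for the gene in 17 members, Isg15, Isg20, Rsad2, Irf2, Irf7 and Irf9 included. Of the myoid markers 10 of 13 were measured, among them Des, Tagln and Actg2, while Acta2 and Myh11 had no probe and Cnn1 was not well above background in either group.

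Start sites matched 37 of the 47 members in RefSeq's annotation of the assembly GRCr8, and a window of 250 bases before to 50 bases after each start was searched on both strands. The ISRE letters, taken as GAAA, any 2 bases and GAAA again, stood in 19 of the 37 windows (51.4%) and in 3.92% of 33469 windows of all genes. The GAS letters TTCNNNGAA stood in 8 of the 37 (21.6%) and in 8.87% of all windows. In 5 members, Bst2, Ifitm3, Oas1a, Psmb8 and Socs1, a window held both, and in Bst2 the matches overlapped. A match of letters is a description of the window, not a site shown to be bound. The 9 windows below are those of the called members Oas1a, Ubd, Mx1 and RT1-Ba, of Isg20, Rsad2, Psme2 and RT1-Da, which came near the threshold in the first comparison, and of Bst2 for its pair of overlapping ISRE matches. The called Isg15 was not among the 37 matched. Each runs 5′ to 3′ on the strand of the gene over the 200 bases before the start, in GRCr8, with ISRE letters on either strand in capitals.
Oas1a, chr12:41330266-41330465, plus strand: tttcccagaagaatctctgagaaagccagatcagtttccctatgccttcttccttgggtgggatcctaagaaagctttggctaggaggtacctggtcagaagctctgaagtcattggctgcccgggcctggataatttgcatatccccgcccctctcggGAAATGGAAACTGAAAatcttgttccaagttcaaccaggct
Isg20, chr1:142239859-142240058, plus strand: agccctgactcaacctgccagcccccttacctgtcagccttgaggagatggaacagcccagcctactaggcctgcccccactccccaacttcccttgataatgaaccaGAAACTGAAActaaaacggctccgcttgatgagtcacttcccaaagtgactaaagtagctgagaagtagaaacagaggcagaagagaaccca
Rsad2, chr6:48788121-48788320, minus strand: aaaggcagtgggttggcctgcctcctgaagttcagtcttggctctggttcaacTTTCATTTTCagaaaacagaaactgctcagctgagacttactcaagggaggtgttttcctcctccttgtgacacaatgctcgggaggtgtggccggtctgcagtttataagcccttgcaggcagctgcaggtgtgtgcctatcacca
Psme2, chr15:33052752-33052951, minus strand: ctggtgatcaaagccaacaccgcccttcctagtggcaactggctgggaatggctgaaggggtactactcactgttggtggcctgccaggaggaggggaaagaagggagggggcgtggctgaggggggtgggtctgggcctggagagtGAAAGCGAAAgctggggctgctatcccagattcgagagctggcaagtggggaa
Bst2, chr16:18254968-18255167, minus strand: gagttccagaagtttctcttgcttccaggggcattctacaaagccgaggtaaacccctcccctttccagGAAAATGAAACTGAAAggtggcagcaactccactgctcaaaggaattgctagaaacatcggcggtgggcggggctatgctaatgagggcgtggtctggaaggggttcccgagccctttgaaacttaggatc
Ubd, chr20:1392686-1392885, minus strand: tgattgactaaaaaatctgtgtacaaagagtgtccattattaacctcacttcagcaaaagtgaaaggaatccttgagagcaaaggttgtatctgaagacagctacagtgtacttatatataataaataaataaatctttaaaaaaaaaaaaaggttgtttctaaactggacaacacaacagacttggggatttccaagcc
Mx1, chr11:50294607-50294806, minus strand: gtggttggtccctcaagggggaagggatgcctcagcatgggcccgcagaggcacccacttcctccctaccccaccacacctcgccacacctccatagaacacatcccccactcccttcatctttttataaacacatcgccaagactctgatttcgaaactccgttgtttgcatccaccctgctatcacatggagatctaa
RT1-Ba, chr20:4576857-4577056, plus strand: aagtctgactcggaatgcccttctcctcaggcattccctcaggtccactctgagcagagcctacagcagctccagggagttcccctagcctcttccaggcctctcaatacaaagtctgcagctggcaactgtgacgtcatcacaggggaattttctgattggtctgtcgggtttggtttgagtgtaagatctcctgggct
RT1-Da, chr20:4515215-4515414, plus strand: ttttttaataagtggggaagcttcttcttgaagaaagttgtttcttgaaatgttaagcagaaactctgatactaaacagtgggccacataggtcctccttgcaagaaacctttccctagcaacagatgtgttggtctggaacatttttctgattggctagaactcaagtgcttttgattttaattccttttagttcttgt

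In the window of Oas1a, which encodes a synthetase that makes the second messenger of RNase L, 2 ISRE matches overlapped and began 41 and 35 bases before the start. Bst2, the gene of the tether that holds budding virus at the cell surface, had the same arrangement from 131 bases before the start. So did Socs1 and Tapbp, whose windows are not printed, from 107 and 26 bases before the start. Matches in Isg20, Rsad2 and Psme2 began 92, 147 and 53 bases before the start, the one in Rsad2 on the opposite strand. The windows of Ubd, Mx1, RT1-Ba and RT1-Da held no ISRE letters, and neither did those of RT1-Bb and Cd74. All matches but the second of Ifi44 and that of Psmb8 ended before the start, and the farthest, in B2m, began 150 bases before it.

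**Figure D1:**
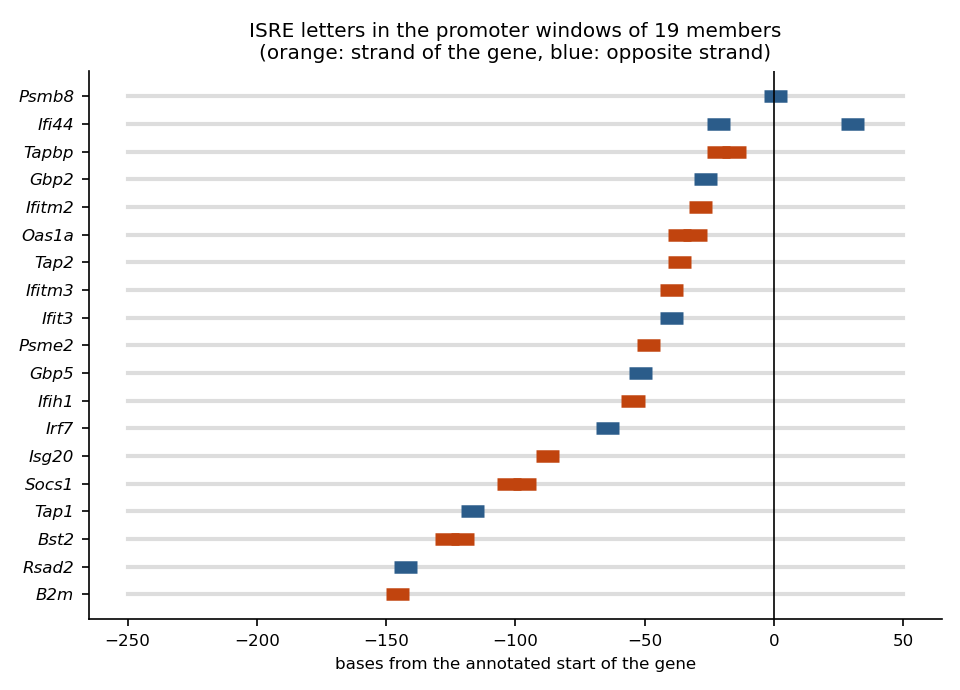
Position of ISRE letters (GAAA, any 2 bases, GAAA) in the promoter windows of the 19 members that held them, in bases from the annotated start of the gene, which the vertical line marks. Grey lines are the windows of 250 bases before to 50 after the start, and coloured boxes are matches on the strand of the gene (11 members) or on the opposite strand (8 members).

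The first comparison set arrays numbered 2 against arrays numbered 1, over both treatments. Most of the antiviral and antigen presentation genes were brighter on the arrays numbered 2, and Ubd, the gene of a ubiquitin-like protein known for its induction by interferon gamma and tumour necrosis factor, was by far the most so, at 7.95-fold. Isg15, Oas1a and Mx1 from the antiviral effectors also passed the test, as did RT1-Ba from the class II genes, whose signal was well above background on the arrays numbered 2 alone, so that it entered the test through the side where it was high and its call is set against background signal. Of 45 members tested, 5 were called higher and 0 lower (limma, Benjamini-Hochberg adjusted p under 0.05 over all genes), where 4.59% of the 22789 genes tested were called higher, 1.27% lower and 5.86% either way. Mx1 lies outside the rule for named genes and is named because the count is small. Among the members, 17 had an unadjusted p under 0.05, as did 7009 of all genes.

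A difference between the numbers was widespread on these arrays, so the members are given beside all genes. The difference was positive in 40 of 45 members and in 59.9% of all genes. Both arrays numbered 2 lay above both numbered 1 in 29 of 45 members, against 40.7% of all genes, and below them in 3, against 24.3%, namely Irf1, Ifnar1 and Ifngr1, the last against a single array numbered 1. The 29 included B2m, Bst2 and Ifitm2, each tested at a probe saturated on all 4 arrays. Measured signals were at least 2-fold apart without overlap, upwards, in 3 members (Ubd, Isg15 and RT1-Ba) against 6.76% of all genes, and downwards in 0 against 1.04%, but for RT1-Ba the bound is at least 1.15-fold. Over the genes well above background on all 4 arrays, which leaves out RT1-Ba and Ifngr1, 2 of 43 members were 2-fold apart (3.66% of all genes), 28 had both arrays above (38.2%), and 8 were called higher (5.77%), with Rsad2, Isg20, Psme2 and RT1-Da beside Ubd, Isg15, Oas1a and Mx1. The median difference was 0.27 over the members and 0.097 over all genes, on the log2 scale, which is 0.17 apart. Scaling to the array median moved the all-gene median to -0.10. Under it 26 of 45 members were positive (40.0% of all genes), 18 of 45 had both arrays above (23.6% of all genes), and genes called higher made up 51.7% of all calls in place of 78.4%.

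**Figure D2:**
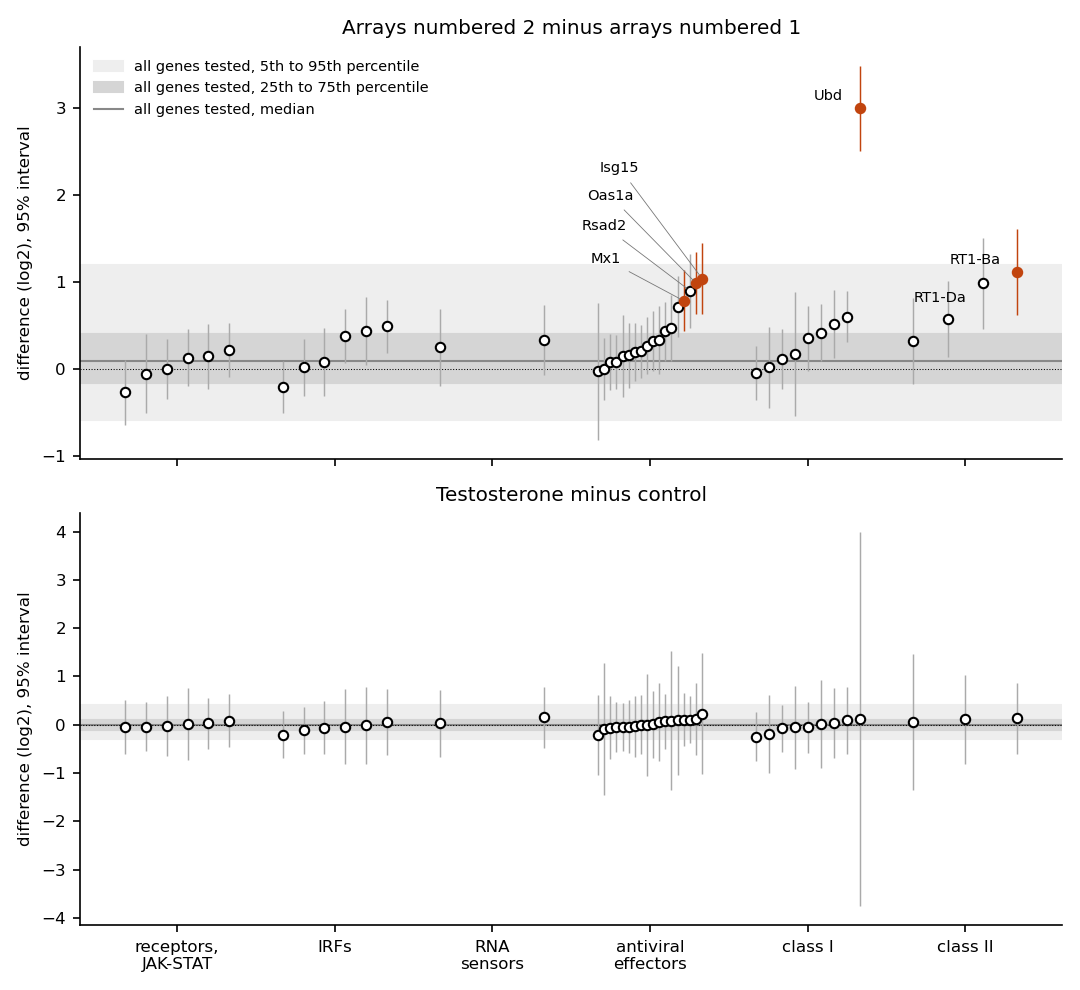
Difference of each member tested on the log2 scale with its 95% interval from limma, by role, for arrays numbered 2 minus 1 (top) and testosterone minus control (bottom). Filled points passed an adjusted p of 0.05, and the bands give all genes tested. Most members lie above 0 in the top panel, with Ubd at 2.99, and all lie between -0.25 and 0.22 in the bottom panel.

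The calls rested on few arrays. Without either array numbered 2, testosterone replicate 2 or control replicate 2, 0 of all genes and 0 members were called. Without testosterone replicate 1 the call of Ubd alone was left, and without control replicate 1 those of Ubd and RT1-Ba. When 1 array was left out, 31 to 38 members had both arrays above, where 46.6% to 53.4% of all genes had. A positive difference was seen in 34 to 41 members and in 55.7% to 61.9% of all genes.

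Receptors and signalling proteins differed least. Of 6 tested, 0 were called, 2 had both arrays above (40.7% of all genes) and 2 both below (24.3%), with a median difference of 0.067. Ifnar1, the first chain of the type I interferon receptor, had levels of 0.31 and 0.16 on testosterone and control number 1 and of -0.14 and 0.07 on number 2, a difference of -0.27 (95% interval -0.64 to 0.11). Its second, dimmer probe also differed by less than 0, at -0.76 and -0.66 against -1.03 and -1.07. Both probes were thus lower on the arrays numbered 2, without passing the test.
Ifngr1, the ligand-binding chain of the interferon gamma receptor, gave -0.051 over 3 arrays, at 0.83 on testosterone number 1 and 0.77 and 0.78 on number 2, since its spot on control replicate 1 bore an outlier flag and was dropped. Jak1 and Jak2, the kinases on these receptors, differed by 0.15 and 0.13 and Stat2, a subunit of the factor that binds the ISRE, by 0.0021. The second Jak1 probe read 0.32 and 0.30 on number 1 and 0.60 and 0.46 on number 2. Socs1, the feedback inhibitor of the kinases, read -2.33 and -2.20 on number 1 and -2.04 and -2.06 on number 2, with no overlap between the groups and an adjusted p of 0.28 (limma).

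Of the interferon regulatory factors, 6 were tested and 0 called, 3 had both arrays above (40.7% of all genes) and the median difference was 0.23. Irf7, the factor that amplifies type I interferon, read 5.19 and 5.43 on number 1 and 5.82 and 5.67 on number 2, a difference of 0.44 (95% interval 0.048 to 0.83, adjusted p 0.13, limma). Irf2, which competes with Irf1 for the same elements, read -2.87 and -2.79 against -2.31 and -2.37. Irf9, the DNA-binding partner of Stat2, read -0.37 and -0.36 against 0.080 and -0.040. In these 3 factors the groups did not overlap, and none passed the test. Irf1, the factor that interferon gamma induces most directly, went the other way, at 1.06 and 1.11 on number 1 and 0.84 and 0.91 on number 2 (adjusted p 0.28, limma). Irf3 and Irf5 differed by 0.024 and 0.083.

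Both RNA sensors, which detect viral RNA in the cytoplasm, had both arrays numbered 2 above both numbered 1, as had 40.7% of all genes. Ifih1 read -0.81 and -1.17 on number 1 and -0.76 and -0.72 on number 2. Dhx58 read -2.16 and -1.98 against -1.62 and -1.86. Neither passed the test, at adjusted p-values of 0.35 and 0.22 (limma). In Ifih1 the arrays numbered 1 lay farther apart than those numbered 2. The second Dhx58 probe overlapped between the numbers, at -4.01 and -3.80 against -4.23 and -3.75.

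The antiviral effectors held 3 of the 5 calls. Of 18 tested, 17 were positive, 13 had both arrays above, and the median difference was 0.29. Of all genes 59.9% were positive, 40.7% had both arrays above and 4.59% were called higher. The 13 included Bst2 and Ifitm2, each through a probe saturated on all 4 arrays. Isg15, the ubiquitin-like modifier attached to proteins after interferon, read 4.33 and 4.46 on testosterone and control number 1 and 5.58 and 5.29 on number 2. It was 2.06-fold higher on the arrays numbered 2, a difference of 1.04 (95% interval 0.63 to 1.45, n = 2 against 2, adjusted p 0.042, limma). Its probe is at chr5:173034674-173034733 on the minus strand of the build rn4. Oas1a read 3.27 and 3.49 on number 1 and 4.39 and 4.34 on number 2. That was 1.98-fold higher, a difference of 0.99 (95% interval 0.63 to 1.34, adjusted p 0.037, limma), at a probe at chr12:36816612-36816671 on the plus strand. Oas1a belongs to a family of near copies, and the probe's share among them is not known. Mx1, a GTPase that traps incoming virus, read -1.70 and -1.67 on number 1 and -0.80 and -1.01 on number 2, 1.72-fold higher (0.78, 95% interval 0.44 to 1.13, adjusted p 0.049, limma). In all 3 the gap between numbers exceeded the gap between treatments within a number.

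Rsad2, which encodes viperin, an enzyme that makes a chain-terminating nucleotide, came close to the threshold. Its brighter probe read 0.87 and 0.74 on number 1 and 1.86 and 1.55 on number 2, a difference of 0.90 (95% interval 0.48 to 1.32, adjusted p 0.053, limma). Its other probe was well above background on both arrays numbered 2 and on neither numbered 1, at least 1.42-fold higher. Both probes therefore had the arrays numbered 2 above. Isg20, an exonuclease of viral RNA, read 0.75 and 0.91 on number 1 and 1.63 and 1.47 on number 2 (0.72, adjusted p 0.056, limma).
Ifi44, an interferon-induced cytoplasmic protein, had 3 probes. They read 4.63 and 4.44 on number 1 and 4.99 and 4.95 on number 2 for the probe that stood for it, 4.29 and 4.17 against 4.54 and 4.78 for the second, and 4.15 and 3.99 against 4.19 and 4.36 for the third. All 3 put both arrays numbered 2 above, with an adjusted p of 0.11 for the first (limma). Of the membrane proteins that block viral entry, Ifitm1 differed by 0.47 and Ifitm3 by 0.15, and Ifitm2 was saturated on all 4 arrays, so no fold is given.

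The other effectors lay closer to 0. Ifit1, Ifit2 and Ifit3, which bind foreign RNA and block its translation, differed by 0.32, 0.20 and 0.080. A further 2 probes of Ifit1 were not well above background on any array, and the second Ifit2 probe overlapped between numbers, at -3.82 and -2.90 against -3.25 and -3.10. Mx2 and Oasl, relatives of Mx1 and Oas1a, differed by 0.27 and 0.16. The guanylate-binding proteins Gbp2 and Gbp5 differed by 0.083 and 0.00062. Usp18, the protease that removes Isg15, was the only effector with a negative value, -0.026, with a wide spread of 0.13 and 0.88 on number 1 and 0.63 and 0.32 on number 2. Its brighter probe lies in columns 57 to 85. Its second probe, outside them, read -3.19 and -3.13 on number 1 and -2.63 and -2.64 on number 2 and was called without those columns. The 2 probes of Usp18 thus disagreed. One probe of Bst2 was saturated on all 4 arrays and the other read 6.86 and 7.04 against 6.89 and 7.06, which overlapped.

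**Figure D3:**
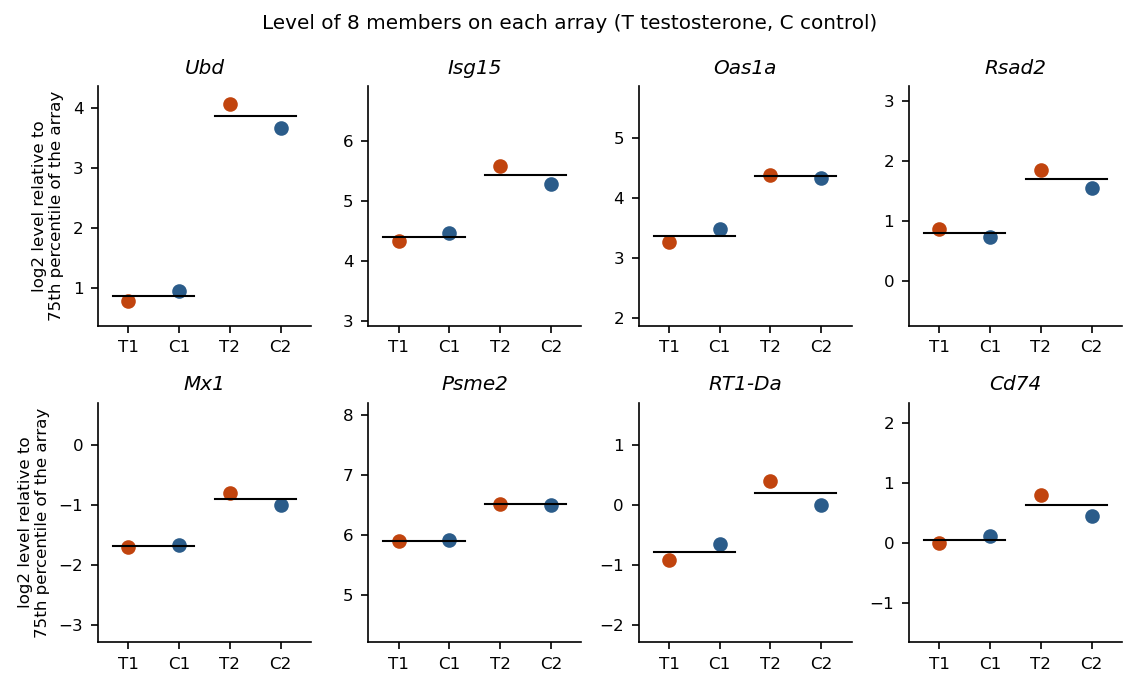
Level of 8 members on each array, as log2 signal relative to the array's 75th percentile, for testosterone (orange) and control (blue) replicates 1 and 2. Horizontal lines are the means of the 2 arrays of a number, and every panel spans the same range on the log2 scale. In each panel both arrays numbered 2 lie above both numbered 1.

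Among the 9 genes of class I processing, 8 were positive (59.9% of all genes), 5 had both arrays above (40.7%), and 1, Ubd, was called (4.59% higher). The 5 included B2m, through a probe saturated on all 4 arrays. The probe of Ubd is at chr20:1476014-1476073 on the minus strand of rn4. Ubd read 0.79 and 0.96 on testosterone and control number 1 and 4.07 and 3.67 on number 2. The arrays numbered 2 averaged 3.87 ± 0.28 (SD, n = 2) and those numbered 1 averaged 0.88 ± 0.12, a difference of 2.99 (95% interval 2.50 to 3.48, adjusted p 0.010, limma). The difference was 3.28 within the testosterone arrays and 2.71 within the control arrays. Ubd was thus separated by number in both treatments, by far more than by treatment.
It was called in 11 of 14 alternative settings, with differences of 2.79 to 3.07, and not without a detection filter, without testosterone replicate 2 or without control replicate 2, at adjusted p-values of 0.075, 0.069 and 0.055 (limma).

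The proteasome genes came next. Psme2, a subunit of the activator that opens the proteasome, read 5.90 and 5.91 on number 1 and 6.52 and 6.50 on number 2 (0.60, 95% interval 0.31 to 0.89, adjusted p 0.054, limma). Its partner Psme1 read 5.56 and 5.63 against 6.09 and 5.94 (0.42). Psmb8, a catalytic subunit of the immunoproteasome, read 4.68 and 4.93 against 5.39 and 5.25 (0.52, adjusted p 0.10, limma). In these 3 genes the groups did not overlap, and none passed the test. Psmb9, the subunit beside it, read 6.72 and 7.37 on number 1 and 7.36 and 7.08 on number 2, where it was saturated. The groups overlapped, with control number 1 above both arrays numbered 2, so no fold is given (adjusted p 0.68, limma). The peptide transporter genes Tap1 and Tap2 and the loading factor Tapbp differed by -0.046, 0.022 and 0.12. B2m, the invariant light chain of class I, was saturated on all 4 arrays at 3 of its 4 probes. The probe that was not read 6.54 and 6.76 on number 1 and 6.73 and 6.74 on number 2, which overlapped.

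The class II genes had the highest median of any role, 0.78 over 4 tested. All 4 had both arrays numbered 2 above, RT1-Ba included, which entered the test through its high side. Of all genes 40.7% had both arrays above and 4.59% were called higher. RT1-Ba encodes a class II alpha chain. Its tested probe read -6.66 and -6.22 on number 1 and -5.33 and -5.33 on number 2, where alone it was well above background, so the call (1.11, adjusted p 0.049, limma) comes with a bound of at least 1.15-fold. With normexp background correction its difference fell to 0.27. Its other probe was well above background on no array. RT1-Da, the alpha chain of the other class II molecule, read -0.93 and -0.65 on number 1 and 0.39 and 0.0029 on number 2, a difference of 0.99 (95% interval 0.46 to 1.51, adjusted p 0.062, limma), and its dimmer probe read -3.92 and -4.03 against -2.69 and -3.70. Both RT1-Da probes had the arrays numbered 2 above.
Cd74, the invariant chain that guards the class II groove, read 0.0064 and 0.12 against 0.81 and 0.46 (0.57, adjusted p 0.11, limma). RT1-Bb, the beta chain that pairs with RT1-Ba, read -1.49 and -1.34 against -0.88 and -1.30, and -3.28 and -3.31 against -1.99 and -2.20 at its second probe. Ciita, the master regulator of these genes, was well above background on no array. The RT1 genes are a family of close copies, so a probe may read more than one of them.

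**Figure D4:**
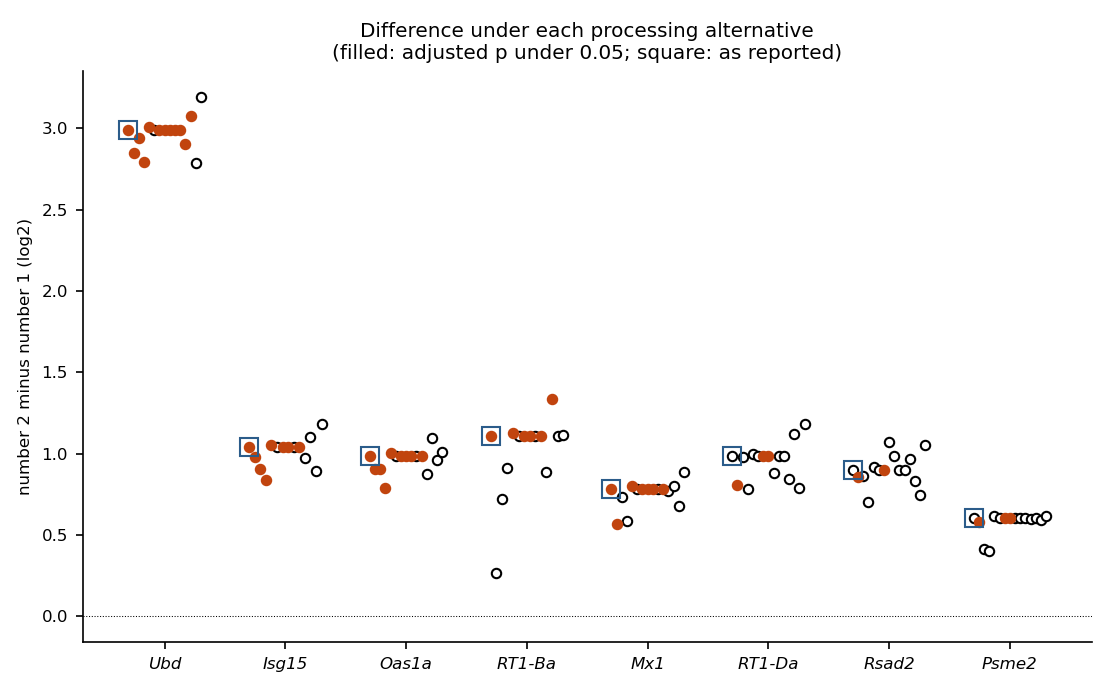
Difference between arrays numbered 2 and 1 on the log2 scale for 8 members, as reported (square) and under each processing alternative that gave a value. Filled points had an adjusted p under 0.05 in limma. Ubd stays between 2.79 and 3.19, and RT1-Ba spans 0.27 to 1.33.

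The members with and without ISRE letters overlapped in this difference. The median difference was 0.25 over the 19 members with ISRE letters in the window, from -0.046 to 0.99, and 0.18 over the 17 tested members whose window held none, from -0.27 to 2.99. Ubd, the highest, was in the group without them, and Oas1a was the highest of the group with them.

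Other genes of the pathway were given by lists. Of 68 further interferon pathway genes 44 were tested, 32 were positive, 5 were called higher and 0 lower. Both arrays numbered 2 lay above in 27 and below in 11. Of all genes 59.9% were positive, 4.59% were called higher, 40.7% had both arrays above and 24.3% both below. The 3 with the largest measured differences were Ifng, the interferon gamma gene itself, Cxcl11 and Zbp1. Ifng read -7.49 and -6.55 on number 1, where it was not well above background, and -4.71 and -5.53 on number 2, which gives at least 1.33-fold, and it did not pass (adjusted p 0.076, limma). Cxcl11, a chemokine that attracts T cells through the receptor Cxcr3, read -0.78 and -0.73 against 1.29 and 0.92 (1.87, adjusted p 0.018, limma). Zbp1, a sensor of nucleic acid in the Z form, read -3.44 and -3.22 against -1.80 and -2.13 (1.36, adjusted p 0.034, limma). The other called genes were Cxcl9, Oas1i and Nmi, named because the count is small. Of 41 further antigen presentation genes 30 were tested and 21 were positive, with both arrays above in 14 and below in 4. The call rate was 3.33%, under that of all genes. The 1 called was RT1-CE10, a class I heavy chain, which read -0.39 and -0.21 on number 1 and 1.27 and 1.38 on number 2 (1.63, adjusted p 0.017, limma). RT1-DMa and Psmb10 followed at 0.77 and 0.68 without passing.

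Markers of other cells moved with the number too, and their part in the differences above was not tested. In RNA from many cells, more cells of a type and more RNA per cell cannot be told apart. Germ cell markers showed the largest differences. All 8 tested of 12 were positive (59.9% of all genes) and 6 were called higher (4.59%). Their summed linear level was 0.550 and 0.519 on number 1 and 6.51 and 6.51 on number 2. Of these, Sycp3, which was called, and Prm2, which was not, were well above background on the arrays numbered 2 alone. Both thus entered the test through their high side, at least 2.75-fold and at least 2.42-fold higher. Tnp2 and Tnp1, which encode transition proteins of spermatids, differed by 4.86 and 4.70. Ddx4 overlapped between the numbers, at -2.56 and -7.59 against -3.83 and -3.96. Its positive value (1.18) came from control replicate 1 alone, at a probe in columns 57 to 85. Of 15 leukocyte and lymphoid markers 8 were tested, all positive, with 4 called higher and summed levels of 4.87 and 7.38 against 8.80 and 8.33. Coro1a made up most of each sum and overlapped between the numbers, at 2.04 and 2.69 against 2.63 and 2.69. Cd4, which differed by 0.22, overlapped too. Cd2, a T and NK cell adhesion molecule, and Cd3e, a chain of the T cell receptor complex, were well above background on the arrays numbered 2 alone, at least 1.43-fold and at least 1.02-fold higher, the second without passing. Cd8a, the coreceptor of cytotoxic T cells, differed by 1.59, with 1 of the 2 arrays numbered 1 well above background. Ptprc had no probe.
Macrophage and dendritic markers went both ways. Of 22, 16 were tested, 7 were positive and 9 negative, with 1 called higher and 3 lower, and summed levels of 212 and 217 on number 1 and 165 and 172 on number 2. The called lower ones were C1qa, C1qb and C1qc, the chains of complement C1q, at -1.03, -1.15 and -1.04. The called higher one was Adgre1, a surface receptor of macrophages, at 1.00, and Aif1, a calcium-binding protein of these cells, was positive at 0.62 without passing. Of 8 endothelial markers tested of 10, 5 were positive and 3 negative, with Kdr (1.92) and Emcn called higher and summed levels of 1.13 and 1.34 against 1.64 and 2.13. Emcn and Pecam1, the second without passing, were well above background on the arrays numbered 2 alone, at least 1.45-fold and at least 1.37-fold higher. Vwf had both arrays numbered 2 below, at -0.43. Of 10 myoid markers tested, 7 were positive and 3 negative, from -0.57 in Smtn to 1.75 in Tagln, the 1 called higher, with summed levels of 199 to 256 over the 4 arrays. Of 9 Sertoli markers tested of 14, 6 were positive and 3 negative, 1 was called lower, Cldn11 at -1.16, and summed levels were 14.8 and 16.5 on number 1 and 19.5 and 17.9 on number 2. Of 7 Leydig markers tested of 8, 6 were negative with both arrays numbered 2 below, 1 of them called lower, Cyp11a1 at -0.93. Among the 6, Hsd17b3 was well above background on the arrays numbered 1 alone and did not pass. Star, which carries cholesterol into mitochondria, was positive at 0.60, and the summed levels, on linear signals, were 94.7 and 102 on number 1 and 122 and 106 on number 2.

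**Figure D5:**
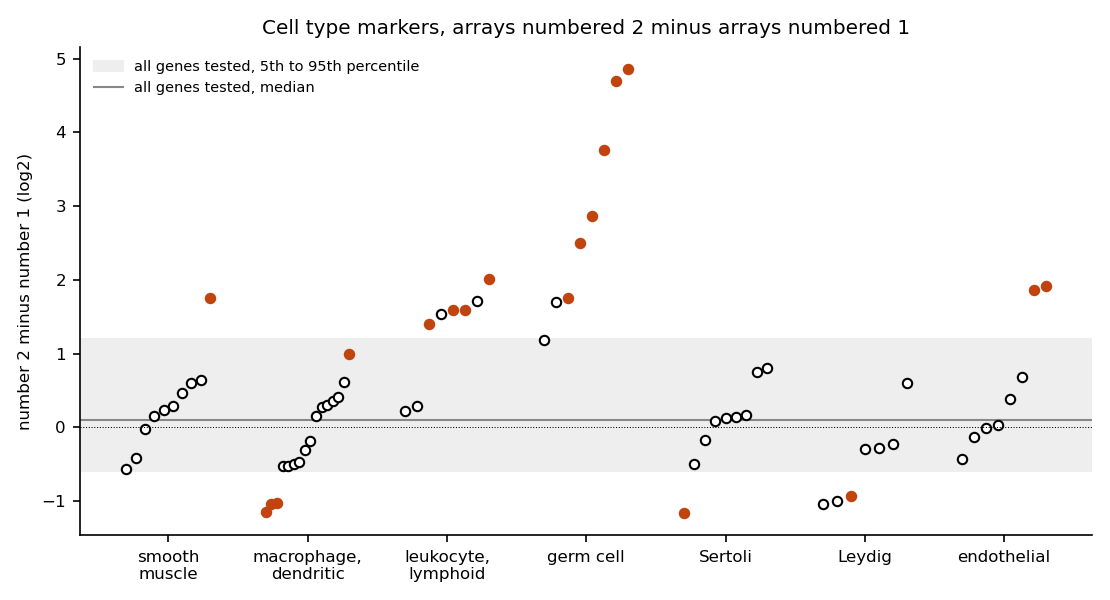
Difference between arrays numbered 2 and 1 on the log2 scale for each marker gene tested, by cell type, with filled points at an adjusted p under 0.05 in limma and bands for all genes tested. All germ cell and leukocyte markers lie above 0, C1qa, C1qb and C1qc are the 3 lowest macrophage markers and Adgre1 the highest, and most Leydig markers lie below 0. Differences of markers not detected on the arrays numbered 1 are against background signal.

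The second comparison set testosterone against control, the question of the series. No member passed the test: 0 of 44 tested were called in either direction by limma, 0 had an unadjusted p under 0.05, and the smallest adjusted p was 1. Over 22038 genes 0.00% were called, and 174 had an unadjusted p under 0.05. At the probe that stood for each gene, the members' differences ran from -0.25 in Tap2 to 0.22 in Rsad2. Of these 23 were positive and 21 negative, with a median of 0.0045 against -0.0081 over all genes. The positive share of all genes was 47.9%. Only 1 member, Ifit3, had both testosterone arrays above both controls, where 6.07% of all genes had, and 4, Irf3, Irf5, Tap1 and Tap2, had both below, where 9.12% had. At least 2-fold apart without overlap were 0 members, against 0.563% of all genes upwards and 0.150% downwards. Further probes well above background on all 4 arrays did not enter these counts. Those of Ifit2 (-0.54), Dhx58 (-0.35), Bst2 (-0.17) and B2m (-0.11) had both testosterone arrays below both controls. Others overlapped: RT1-Da at 0.56, RT1-Bb at 0.13, Jak1 at 0.080, Usp18 at -0.022, Ifnar1 at -0.032 and Ifi44 at -0.060 and -0.0058. The saturated further probes of B2m gave 0.043 and 0.055.

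The width of the intervals followed the spread between numbers. For Ubd, which read 0.79 and 4.07 with testosterone and 0.96 and 3.67 in control, the difference was 0.12 with an SE of 1.45. For Tap1, at 3.54 and 3.55 against 3.67 and 3.57, it was -0.075 with an SE of 0.18. The arrays of a number lay together in Ubd, whatever the treatment, and the 4 values of Tap1 lay close. Isg15, Oas1a and Mx1 differed by 0.082, -0.088 and 0.090.

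Receptors and signalling proteins ranged from -0.048 in Socs1 to 0.085 in Jak1. The interferon regulatory factors had 1 positive and 5 negative values. Irf5, a factor of myeloid cells, read 2.10 and 2.17 with testosterone and 2.29 and 2.39 in control (-0.21), and Irf3, the latent factor activated by RNA and DNA sensors, read 4.54 and 4.58 against 4.67 and 4.68 (-0.12). In both the testosterone arrays lay below the controls, with 95% intervals that included 0. Ifih1 and Dhx58 differed by 0.16 and 0.033.
Of the effectors 10 were positive and 8 negative. Rsad2 read 0.87 and 1.86 with testosterone and 0.74 and 1.55 in control, and Usp18 read 0.13 and 0.63 against 0.88 and 0.32 (-0.22). Both overlapped between treatments. Ifit3 read -0.61 and -0.54 against -0.72 and -0.64 (0.11), which did not overlap. Tap2, a subunit of the peptide transporter, read 4.63 and 4.52 against 4.75 and 4.90 (-0.25, 95% interval -0.76 to 0.26), again without overlap. Of the 3 class II genes tested, RT1-Bb, Cd74 and RT1-Da differed by 0.13, 0.12 and 0.057, with the treatments overlapping in each.

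The further lists gave the same count of calls. Of the interferon pathway genes 43 were tested, 24 were positive and 0 called, and of the antigen presentation genes 30 were tested, 11 were positive and 0 called. Of all genes 47.9% were positive and 0.00% called. Tlr9, a sensor of DNA, differed by 0.80 (95% interval -0.50 to 2.10). These counts turned on single arrays, since leaving one out leaves the numbers unbalanced between the treatments. Positive members then numbered 8 (without testosterone replicate 2), 10 (without control replicate 1), 32 (without control replicate 2) or 36 (without testosterone replicate 1), and those with both testosterone arrays above numbered 3, 1, 10 or 28. No share of all genes stands beside these counts, so they do not set the members apart from the array as a whole. Without control replicate 2, 32 genes were called higher and 2 lower, 0 of them members.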

How the data were processed

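Per the file headers, Feature Extraction 11.5.1.1 made the deposited scanner files, with probe positions on rn4. Version 10.5 of Agilent Feature Extraction stands in the submitters' processing notes. The deposited files give each spot's processed signal as a linear intensity, flagged as well above background (clear of the local background), saturated or outlying. The authors' deposited table holds log2 values, with column medians of -3.62 to -3.34. For 100% of the probes printed once they equalled, within 0.01, log2 processed signal minus a constant per array of 8.38 to 8.79. Probes printed more than once were not checked this way. The scale, centring and direction of the table are known from the probes printed once.

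From each log2 processed signal the 75th percentile of its array was subtracted. Controls and outlier-flagged spots were dropped, saturated ones kept, and repeat spots averaged. To be tested, a probe had to be well above background on both arrays of either group in that contrast. Names came from GRCr8 reference tables for 10792 probes by accession, 221 by a secondary accession, 5185 by symbol, 3382 by an older symbol and 63 by the rule for these genes, and the other 21369 kept the file's name. Each contrast was fitted with limma 3.58.1 in R 4.3.3 (lmFit, eBayes, no covariate, 2-sided), checked on simulated data, with calls at an adjusted p under 0.05. An exact permutation test of 2 against 2 arrays cannot go below 0.333, so none is given. At least N-fold sets the bright group against the higher of the dim signal and the lowest level well above background, -5.59 on average.

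The number contrast came with the choice of these genes. Members and lists were chosen with earlier results of these data known. Named are the 3 largest differences per role and contrast, every member at least 2-fold apart without overlap, and all probes of genes with several. The other members are given by their values or ranges.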

Additional observations from a re-analysis of the deposited data

How the results depend on the processing

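With a single slide and a single scan for all 4 arrays, no slide block could be fitted. The labels do not say that arrays of a number share a culture. With 2 pairs the correlation of their deviations (0.589 over 24489 probes) is a hint of pairing only. It cannot tell a shared culture from slide position, which goes with the number. With the replicate block, 349 genes were called higher and 23 lower for the number, and 1 member (Ubd). For testosterone the block changed no call. In the number contrast normexp background correction called 2579 of 22789 genes higher and 1113 lower, 16 members higher, and put 1 member 2-fold higher. Quantile normalization called 569 of 22789 genes and 3 members higher, with 1 member 2-fold higher and a members' median of 0.12. Array median scaling called 935 of 22789 genes higher, 875 lower and 3 members higher. It left 18 members with both arrays above, 26 positive, 1 member 2-fold higher and a median of 0.070. The authors' deposited table put 5 members 2-fold higher. No share of all genes was taken for the 2-fold counts under any of these settings, so they do not set the members apart. Without a detection filter 0 genes were called higher, 0 lower and 0 members, with 7340 genes at an unadjusted p under 0.05 in limma, and the members' median was 0.25 above that of all genes. Requiring detection on all 4 arrays called 1200 of 20792 genes higher, 533 lower and 8 members higher. Leaving out columns 57 to 85 called 1246 of 15815 genes higher, 501 lower and 8 members higher, with the members' median 0.24 above that of all genes. At least 1.5-fold held for 9 members and at least 3-fold for 1, with no share of all genes taken at these thresholds. Leaving out saturated probes, chosen after seeing the data, kept the same 5 calls.

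For testosterone, members with a positive difference numbered 14 under array median scaling and 14 without columns 57 to 85. Signs turned in normexp for Stat2 (0.054), Dhx58 (-0.0060), Usp18 (0.10) and Psmb9 (0.0044), in Dhx58 also with quantile normalization (-0.00078), array median scaling (-0.033) and the mean of probes (-0.16), in RT1-Da with array median scaling (-0.0091) and in Ifi44 without columns 57 to 85 (-0.060). In the number contrast Jak1 turned with array median scaling (-0.052).

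Leaving out 1 array each, the number contrast gave 0 to 827 genes called higher, 0 to 194 lower, 0 to 2 members called, 31 to 38 with both arrays above, 34 to 41 positive, 1 to 6 at least 2-fold higher, a median of 0.21 to 0.34 and 0.13 to 0.23 above all genes. Testosterone gave 0 to 32 genes higher, 0 to 2 lower, 1 to 28 members with both arrays above, 8 to 36 positive, 0 to 1 at least 2-fold higher, a median of -0.19 to 0.23 and -0.13 to 0.15 from all genes. Signs of small testosterone differences turned when an array was left out: Jak1 from -0.070 to 0.24, Socs1 from -0.19 to 0.098, Stat2 from -0.11 to 0.033, Irf1 from -0.17 to 0.048, Ifih1 from -0.067 to 0.39, Dhx58 from -0.24 to 0.30, Rsad2 from -0.27 to 0.72, Usp18 from -0.50 to 0.056, Ifi44 from -0.14 to 0.37, Psmb9 from -0.51 to 0.13, Ubd from -1.52 to 1.75, RT1-Bb from -0.17 to 0.44, Cd74 from -0.28 to 0.52 and RT1-Da from -0.60 to 0.72. The cause of these changes was not tested, beyond what leaving out arrays or probes brings by construction. An arm left with 1 array was assumed to vary like the other. With 2 arrays per group, intervals stayed wide, and saturation hid any difference in Ifitm2 and most B2m probes.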
